A study of Mus musculus with 18 samples.

Results

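The cytochrome P450 genes of the mouse were examined for KAP1 and SETDB1 in a hepatoma line and for H3K9me3 and H3K27ac in fibroblasts with and without Kap1. The genes were the protein-coding autosomal genes of the mm9 GENCODE annotation whose symbol reads Cyp, a number, a letter and a number, such as Cyp2d9. They came to 90 of 21418 autosomal protein-coding genes, and each was taken with 10 kb on both sides of its body, a stretch called its window here. The rule did not use any measured value, and it left out 8 P450 entries with other symbols, among them Cyp51 and Cyp3a41a. ChIP-seq of KAP1 and of SETDB1 was performed in Hepa 1.6 cells, which are wild type at Kap1 and come from the BW7756 liver tumour of a C57L mouse. ChIP-seq of H3K9me3 and H3K27ac was performed in mouse embryonic fibroblasts (MEFs) of the C57BL/6 strain, either WT, carrying loxP sites on both Kap1 alleles, or Kap1 KO. The methods describe the Kap1 KO MEFs, for the RNA-seq of the study, as a stably growing clone kept in culture beside its non-excised counterpart for many passages, so that loss of Kap1 and clone cannot be told apart. Each condition had 1 library. The peaks were those the authors called on the reads with MACS, each deposited as a position and a score. A higher score stands for a smaller p-value of the peak, and it ranks peaks within a list. Scores of WT and Kap1 KO MEFs are given side by side as deposited, and a gap between them is not read as a difference.

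P450 enzymes are heme proteins that insert an oxygen atom into small molecules. In liver, those of the Cyp1, Cyp2 and Cyp3 families act mostly on drugs, pollutants and other foreign compounds, and many of them are encoded in tandem arrays of closely related genes. Others have fixed physiological substrates, such as cholesterol and bile acids, steroid hormones, vitamin D, retinoic acid or fatty acids. KAP1 (Trim28) is a corepressor brought to DNA by KRAB zinc finger proteins. It recruits the histone methyltransferase SETDB1, which writes H3K9me3, a mark of silent chromatin, while H3K27ac marks active promoters and enhancers.

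The 6 lists held between 2957 peaks (SETDB1) and 36436 peaks (H3K27ac in Kap1 KO MEFs). Every SETDB1 entry was present among the 13366 KAP1 peaks too, so that the SETDB1 list stands for KAP1 peaks shared with SETDB1. The H3K9me3 lists were of unequal size, with 14425 peaks in WT and 4319 in Kap1 KO MEFs. The start of the targeted gene, Trim28, lay under H3K27ac peaks with a score of 3100 in both genotypes, which does not report on the deletion. All 10 fibroblast genes on a marker list, among them Col1a1 and Vim, had H3K27ac within 1 kb of a transcript start in both genotypes. Of 10 hepatocyte genes, 0 had such a peak in WT MEFs and 1, Apob, had one in Kap1 KO MEFs. Of markers of other cell types, such peaks were found at Pecam1 of 3 endothelial genes (scores 174 in WT and 161 in Kap1 KO), at Cd68 of the 2 blood genes found (259 and 118), and at Krt8 of 3 epithelial genes in WT alone (1622). Depth is unknown from peak lists, weaker enrichment can go unlisted, and without replicates no test between genotypes was possible.

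In Hepa 1.6 cells, the strongest KAP1 sites of the P450 genes lay at Cyp2u1 and Cyp26b1. Cyp2u1 hydroxylates long-chain fatty acids, and Cyp26b1 degrades retinoic acid. At Cyp2u1 (chromosome 3, 130993409 to 131006145, minus strand), 1 KAP1 peak with a score of 1724 covered the transcript start and the first exon. It was followed upstream by a peak with a score of 511, centred 1298 bp from the start, and by 1 with a score of 1000, at 6157 bp. All 3 peaks were in the SETDB1 list. In MEFs the peak furthest upstream overlapped H3K9me3 in WT (score 60.6) and no H3K9me3 peak in Kap1 KO, while the start carried H3K27ac in both genotypes (scores 1670 in WT and 761 in Kap1 KO). At Cyp26b1 (chromosome 6, 84521938 to 84543740, minus strand), 4 KAP1 peaks lay in the gene. The highest, with a score of 1618, was intronic and centred 1355 bp upstream of the nearest transcript start. A peak with a score of 293 covered that start, and 2 more, with scores of 181 and 994, followed at 2559 bp and 4260 bp downstream, the last of them over a coding exon. The SETDB1 list held 3 of the 4 and lacked the one at the start. The last overlapped 2 H3K9me3 peaks of WT MEFs (scores 104 and 56.9), whereas the start lay under H3K27ac in both genotypes (scores 3100 in WT and 1187 in Kap1 KO). KAP1 scores of 1618 and 1724 stand above 96.9% and 97.1% of the KAP1 list.

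The middles of the highest KAP1 peak of each of these genes are shown because these peaks had the highest KAP1 scores among P450 genes. They read as follows on the plus strand of mm9, at chr3:131005766-131005965 for Cyp2u1 and chr6:84539887-84540086 for Cyp26b1, with CG dinucleotides in capitals.
Cyp2u1: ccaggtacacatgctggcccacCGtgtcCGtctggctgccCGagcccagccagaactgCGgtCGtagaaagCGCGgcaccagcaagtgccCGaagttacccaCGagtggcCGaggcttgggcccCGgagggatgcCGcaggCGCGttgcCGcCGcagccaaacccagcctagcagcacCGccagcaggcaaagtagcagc
Cyp26b1: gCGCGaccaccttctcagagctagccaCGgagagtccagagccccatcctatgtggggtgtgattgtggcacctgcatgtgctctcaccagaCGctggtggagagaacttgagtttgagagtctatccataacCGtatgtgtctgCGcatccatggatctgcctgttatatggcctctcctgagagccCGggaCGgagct
These 200 bases held 17 CG dinucleotides at Cyp2u1 and 8 at Cyp26b1. A search of the whole peaks in the mm9 genome found 0 similar sequences of at least 300 bp elsewhere for either of them, so that both are single-copy sites.

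Over all P450 genes, 23 of 90 had a KAP1 peak in their window (25.6%, exact 95% confidence interval 16.9% to 35.8%), against 37.2% of all autosomal protein-coding genes. Intervals cover counting error only, and neighbouring genes can share a peak. The windows of the P450 genes were longer than those of all genes, with medians of 41178 bp and 35535 bp. With each P450 gene given the share of its own chromosome, the mean share was 40.5%. Within 1 kb of a transcript start, KAP1 was found at 6 P450 genes (6.67%, interval 2.49% to 13.9%), against 19.6% of all genes. These were Cyp2u1, Cyp26b1, Cyp26a1, Cyp1b1, Cyp21a1 and Cyp2c40. For the SETDB1 list, 8 of 90 genes had a peak in the window (8.89%, interval 3.92% to 16.8%), against 7% of all genes. The windows held 30 distinct KAP1 peaks, of which 12 were in the SETDB1 list (40.0%, interval 22.7% to 59.4%). Among all other KAP1 peaks the share was 22.1%. Of the 12 peaks, Cyp2u1 and Cyp26b1 held 3 each, and the interval treats peaks of 1 gene as independent.

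**Figure D1:**
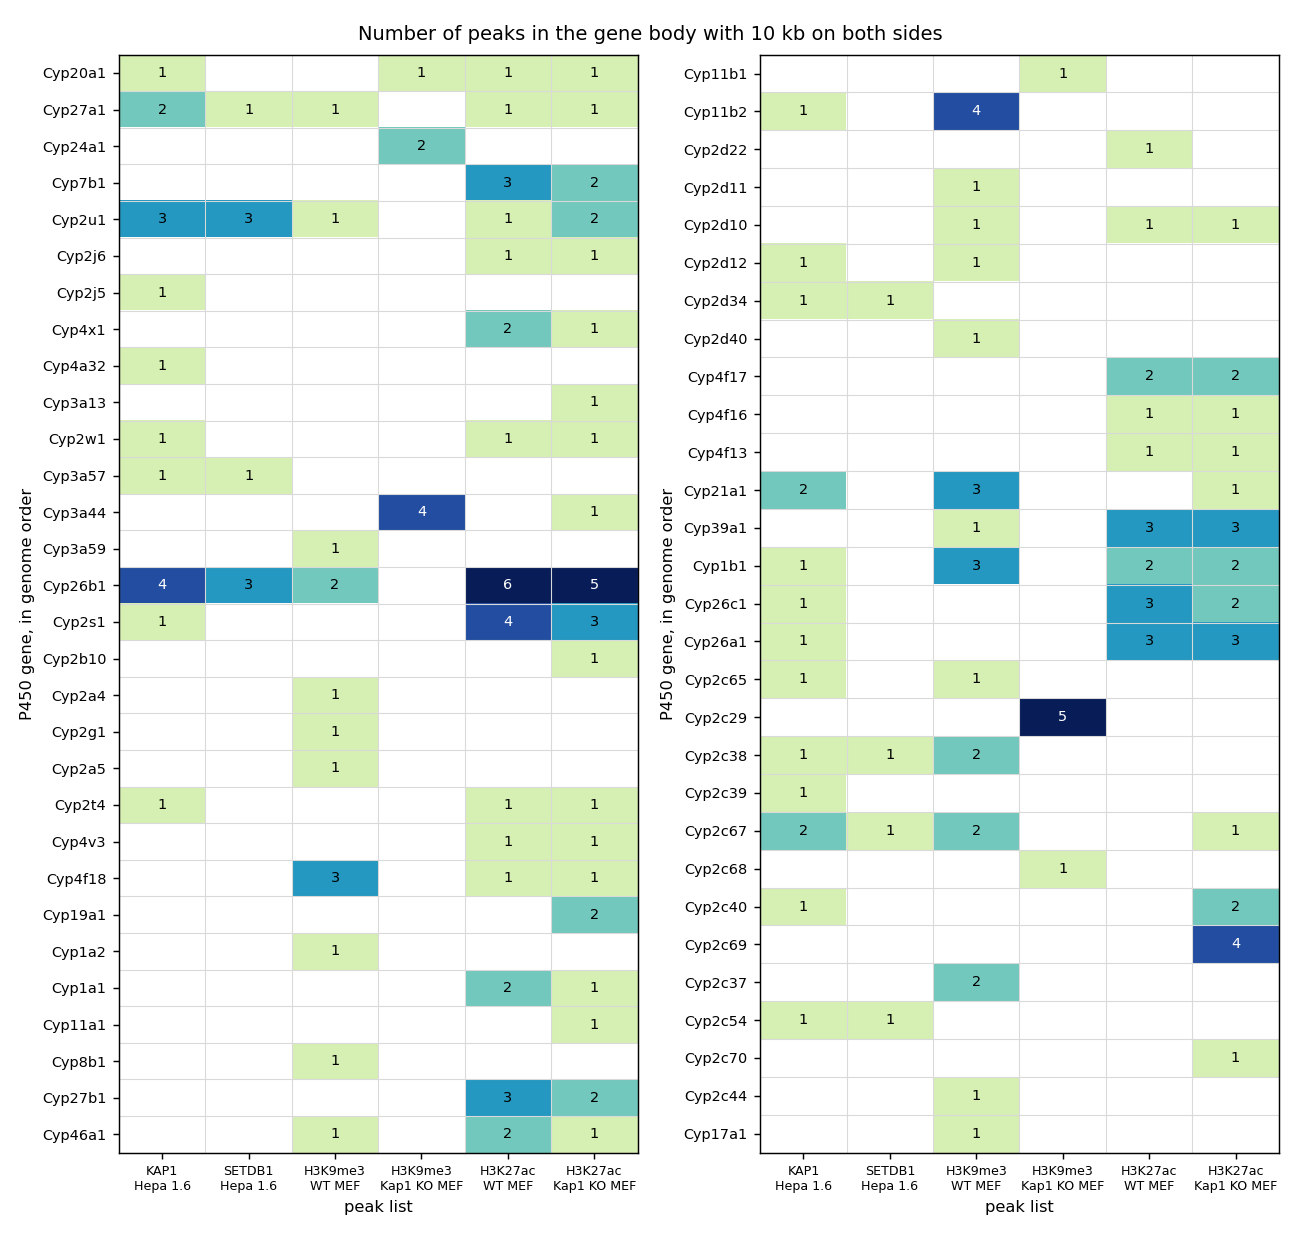
Number of peaks of each of the 6 lists (columns) in the window of each P450 gene with at least 1 peak (rows, in genome order along the chromosomes), with blank cells for 0. Cyp26b1 and Cyp2u1 had the most KAP1 peaks, 4 and 3, Cyp2c29 had 5 H3K9me3 peaks in Kap1 KO MEFs, and 31 of the 90 genes, not drawn, had no peak of any list.

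Below Cyp2u1 and Cyp26b1, the next highest KAP1 score was that of Cyp11b2. Cyp11b2, the aldosterone synthase gene, had a peak with a score of 508 at 6998 bp upstream of its start. It overlapped 2 H3K9me3 peaks of WT MEFs, with scores of 340 and 105. Cyp2c65 followed with a score of 409, Cyp2s1 with 369, Cyp2c67 with 337 and Cyp21a1, the steroid hydroxylase of glucocorticoid and mineralocorticoid synthesis, with 333 for a peak downstream of the gene. Cyp2d12 had a peak with a score of 255 at 2171 bp upstream, within which H3K9me3 of WT MEFs had a score of 170. Cyp1b1, an enzyme for polycyclic hydrocarbons and oestradiol, had a peak with a score of 182 over a coding exon, at 1092 bp from its start. All other P450 genes with a KAP1 peak had scores below that. They were Cyp27a1, Cyp2c54, Cyp20a1, Cyp2d34, Cyp2t4, Cyp2j5, Cyp2c38, Cyp2c40, Cyp3a57, Cyp4a32, Cyp2c39, Cyp2w1, Cyp26a1 and Cyp26c1, the last pair sharing 1 peak at the lowest score of the list, 80. Of the 30 peaks, 27 had a P450 gene as the closest protein-coding start. The other 3 lay closest to starts of other genes, with the Cyp2w1 peak 9 bp from a start of Cox19, the Cyp2t4 peak 161 bp from one of Egln2 and the Cyp2s1 peak 9996 bp from one of Axl.

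In the Cyp2c array on chromosome 19, which encodes enzymes for drugs and arachidonic acid, KAP1 was found at the same place of closely related genes. Cyp2c67 (39683332 to 39723541) and Cyp2c40 (39841561 to 39887304), both on the minus strand, had an intronic KAP1 peak centred 1568 bp and 1263 bp from a transcript start. Neither place had an H3K27ac peak in WT MEFs, and both lay under H3K27ac in Kap1 KO MEFs, with scores of 666 and 1409. The corresponding place of Cyp2c69 (39917150 to 39961259) had no KAP1 peak in Hepa 1.6 cells, yet it lay under H3K27ac in Kap1 KO MEFs (score 733) and not in WT. No H3K9me3 peak of either genotype lay over any of the 3 places. The sequence under the KAP1 peak of Cyp2c40 was found again in Cyp2c69 with 96.4% identity over 559 bases and in Cyp2c67 with 92.6% identity over 557 bases, while Cyp2c68, between Cyp2c67 and Cyp2c40, held no match of at least 300 bp. A stretch of 150 bases of the 3 copies is shown to let their likeness be seen, on the plus strand of mm9 and with capitals at the 16 positions where the genes differ. It covers chr19:39885896-39886045 in Cyp2c40, chr19:39721885-39722034 in Cyp2c67 and chr19:39959826-39959975 in Cyp2c69.
Cyp2c40: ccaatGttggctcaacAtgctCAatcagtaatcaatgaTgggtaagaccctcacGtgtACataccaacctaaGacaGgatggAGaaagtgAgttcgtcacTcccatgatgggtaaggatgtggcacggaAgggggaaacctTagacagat
Cyp2c67: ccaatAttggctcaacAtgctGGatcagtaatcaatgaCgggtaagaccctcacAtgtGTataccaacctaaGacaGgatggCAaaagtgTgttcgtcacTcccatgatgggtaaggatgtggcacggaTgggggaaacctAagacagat
Cyp2c69: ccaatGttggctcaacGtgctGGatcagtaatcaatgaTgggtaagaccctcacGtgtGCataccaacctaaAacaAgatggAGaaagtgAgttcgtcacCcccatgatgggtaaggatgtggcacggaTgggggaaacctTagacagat
Copies this close share reads: of the 31-base words under the KAP1 peaks, 27.8% at Cyp2c67 and 41.2% at Cyp2c40 occurred more than once in the genome. Under the H3K27ac peaks of Kap1 KO MEFs at these places, the shares were 36.0% at Cyp2c67, 60% at Cyp2c40 and 59.8% at Cyp2c69. How the mapping divided such reads among the genes was not tested.

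The sequence under these KAP1 peaks was not limited to the Cyp2c genes. The peak of Cyp2c40 had 128 similar copies of at least 300 bp elsewhere in mm9, with a median identity of 84.9%, Cyp2c67 and Cyp2c69 included. Of these, 65 overlapped a KAP1 peak of Hepa 1.6 cells (50.8%) and 45 an H3K9me3 peak of WT MEFs (35.2%), with 37 copies under both. In Kap1 KO MEFs, 2 copies overlapped H3K9me3. H3K27ac covered 29 copies in Kap1 KO MEFs (22.7%) and 1 in WT MEFs. KAP1 peaks lay over 24 of those 29 copies and WT H3K9me3 over 16. H3K27ac in Kap1 KO MEFs was found at 36.9% of the 65 copies with KAP1 and at 7.94% of the 63 copies without. Of the whole KAP1 list, 39.7% of peaks overlapped H3K27ac in Kap1 KO MEFs and 36.9% in WT MEFs. Cyp2c67 is among the 65 and Cyp2c69 among the 63, and their peaks were known before the search. Copies of 1 family share their sequence and are not independent of each other.

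The search was made for the 23 KAP1 peaks of P450 genes whose median 31-base word occurred at most 50 times in the genome. For 12 of them no similar sequence was found, 1 had a single copy, 1 had between 10 and 100 copies, and 9 had over 100. At Cyp2j5, of the epoxygenase array on chromosome 4, the peak (score 138) had 647 similar copies. KAP1 covered 38.5% of them, H3K9me3 of WT MEFs 13.8% and H3K27ac of Kap1 KO MEFs 9.43% (61 copies), while 0 copies had H3K27ac in WT MEFs or H3K9me3 in Kap1 KO MEFs. The peak of Cyp20a1, an enzyme without a known substrate, had 583 copies, of which 20.2% had KAP1 and 10.8% had H3K9me3 in WT MEFs. There H3K27ac covered 31 copies in Kap1 KO and 19 in WT MEFs. The peak of Cyp2c65 had 219 copies with KAP1 at 20.5%, and that of Cyp11b2 had 230 copies with KAP1 at 10.4%. The copies of the Cyp2s1 peak, 96 in number, had 0 KAP1 peaks. Peaks of Cyp2u1 (at 6157 bp upstream), Cyp2d12 and Cyp2c39 matched between 6432 and 53022 places, of which at most 0.455% had KAP1. The 7 peaks not searched were those of Cyp2d34, Cyp2c54, Cyp2c38, Cyp3a57, Cyp4a32, the lower of Cyp2c67 and the higher of Cyp21a1. Their median word occurred between 81 and 1041 times, and 5 of the 7 were in the SETDB1 list.

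**Figure D2:**
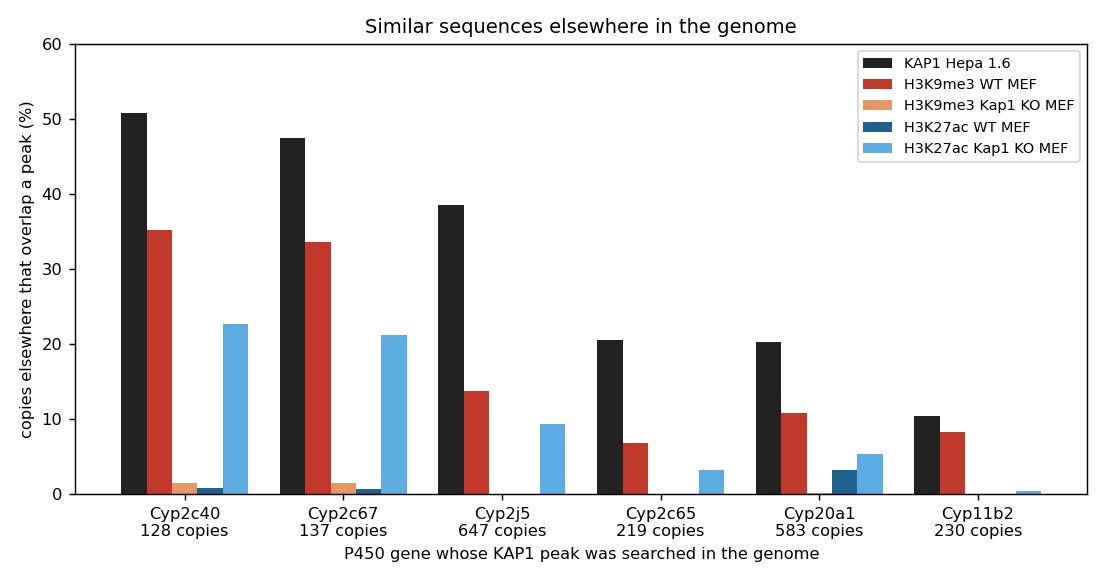
Share of similar genomic sequences (y axis, percent of copies elsewhere) that overlap a peak of each list (colours), for the 6 KAP1 peaks of P450 genes with between 100 and 1000 copies (x axis, with the number of copies). At the Cyp2c40 sequence 50.8% of 128 copies had KAP1 and 22.7% had H3K27ac in Kap1 KO MEFs, against 1 copy with H3K27ac in WT MEFs.

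A second duplicated site was found upstream of Cyp21a1 (chromosome 17, 34938293 to 34941506, minus strand). A KAP1 peak with a score of 116 was centred 738 bp from its start. In WT MEFs it overlapped H3K9me3 (score 120), and a further H3K9me3 peak with a score of 61.5 covered the start. In Kap1 KO MEFs neither was present, and an H3K27ac peak with a score of 488 covered the site and the start, where WT MEFs had none. The only similar sequence elsewhere in the genome, with 94.3% identity over 505 bp, lay at 34859796 to 34860300 of the same chromosome, beside the pseudogene Cyp21a2-ps. This second copy showed the same set of peaks. It carried KAP1 (score 95), H3K9me3 in WT MEFs (score 260) and H3K27ac in Kap1 KO MEFs (score 339), and neither H3K9me3 in Kap1 KO nor H3K27ac in WT MEFs. A stretch of 150 bases of both is shown on the plus strand of mm9, at chr17:34942169-34942318 and chr17:34860022-34860171, with capitals at the 13 positions where they differ.
Cyp21a1: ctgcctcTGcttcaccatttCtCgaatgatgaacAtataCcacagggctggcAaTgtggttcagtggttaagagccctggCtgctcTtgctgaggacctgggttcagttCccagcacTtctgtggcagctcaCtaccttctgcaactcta
Cyp21a2-ps: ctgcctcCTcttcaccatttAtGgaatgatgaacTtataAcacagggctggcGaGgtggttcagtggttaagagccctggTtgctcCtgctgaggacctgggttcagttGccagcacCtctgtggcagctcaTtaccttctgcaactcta
Of the 31-base words of the KAP1 peak at Cyp21a1, 19.9% occurred more than once in the genome. For the WT H3K9me3 peaks the shares were 27.1% at the site and 55.6% at the start, and for the Kap1 KO H3K27ac peak 37.1%. How the mapping divided such reads between both copies was not tested.

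**Figure D3:**
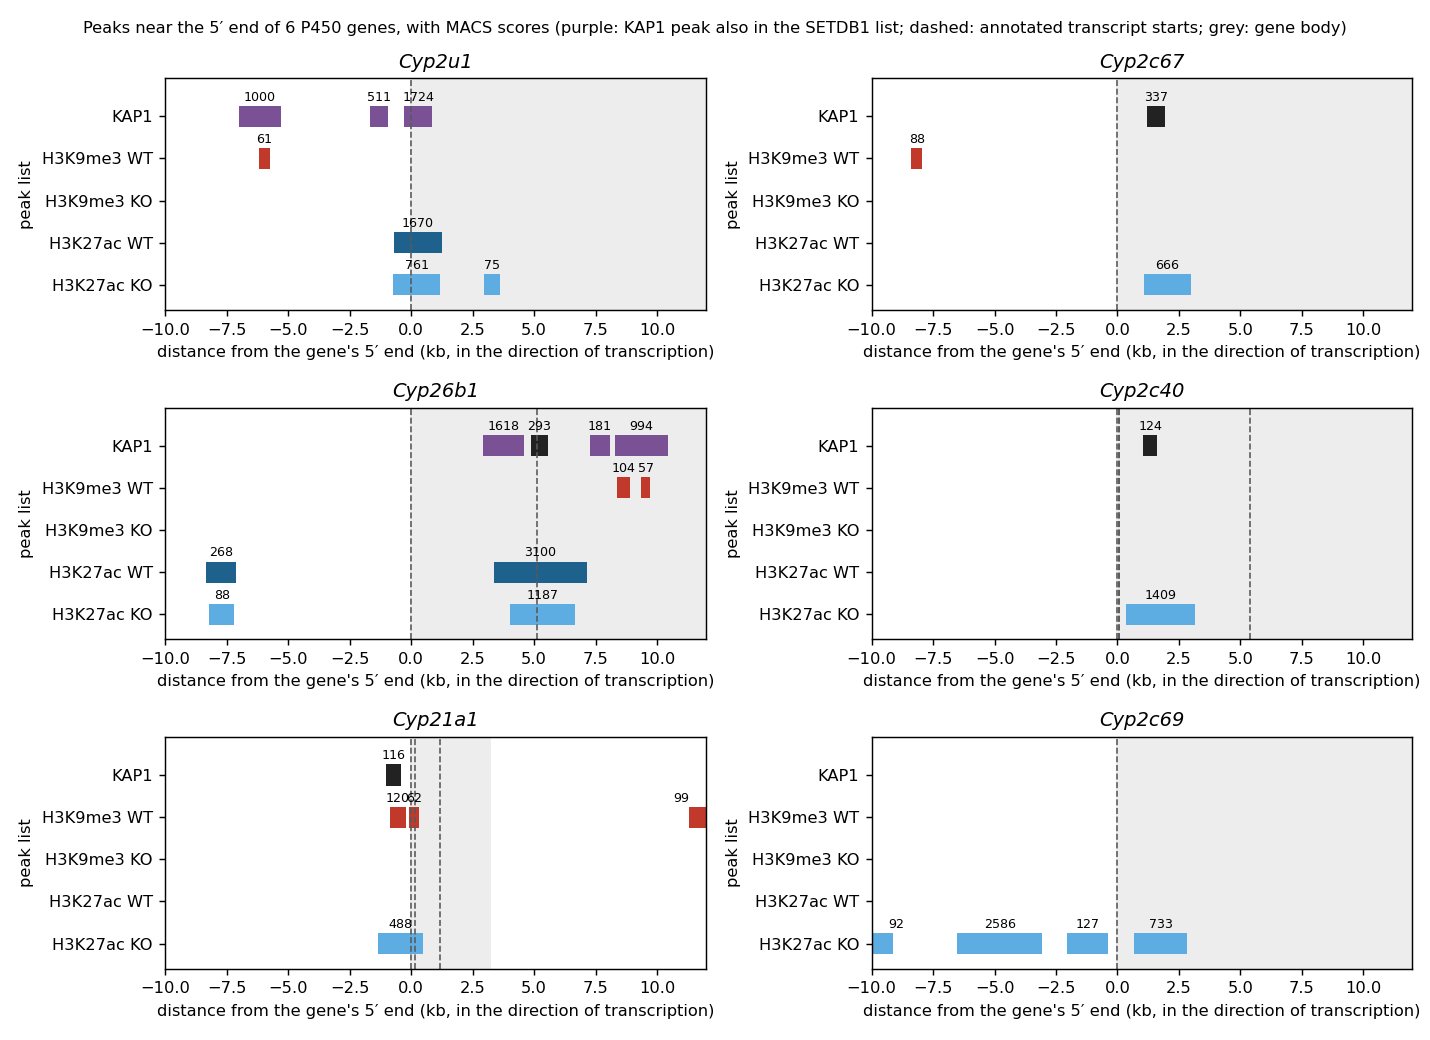
Peaks of KAP1 (Hepa 1.6), H3K9me3 and H3K27ac (WT and Kap1 KO MEFs) by distance from the 5′ end of 6 P450 genes (x axis, kb in the direction of transcription), with MACS scores above the bars. The KAP1 peaks drawn for Cyp21a1, Cyp2c67 and Cyp2c40 lay under H3K27ac in Kap1 KO MEFs alone, and the starts of Cyp2u1 and Cyp26b1 under H3K27ac in both genotypes.

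H3K9me3 was found in the window of 25 of 90 P450 genes in WT MEFs (27.8%, interval 18.9% to 38.2%), against 19.7% of all genes. In Kap1 KO MEFs it was found at 6 (6.67%, interval 2.49% to 13.9%), against 3.45% of all genes. The lists differ in size, and with equally many top-scoring peaks from both genotypes 6 genes had the mark in WT (6.67%, against 8.95% of all genes) and 6 in Kap1 KO. With all peaks, no P450 gene was in both sets. Of all 21418 genes, 4212 had the mark in WT and 738 in Kap1 KO MEFs, and 369 had it in both. The 25 and the 6 genes thus each had the mark in 1 genotype alone, against 17.9% of all genes for WT and 1.72% for Kap1 KO. Of the 8 P450 entries outside the symbol rule, 2, Cyp3a41a and Cyp3a41b, had H3K9me3 in both genotypes. None of the 36 distinct WT peaks in these windows shared a base with a Kap1 KO peak (0%, interval 0% to 9.74%). Of the whole WT list, 3.20% did. Of the 14 distinct Kap1 KO peaks, 0 shared a base with a WT peak (interval 0% to 23.2%), against 10.7% of the whole Kap1 KO list. Peaks without such a shared base lay in the windows of 19.2% of all genes in WT and 2.91% in Kap1 KO MEFs. Among the 30 KAP1 peaks of P450 genes in Hepa 1.6 cells, 7 overlapped H3K9me3 of WT MEFs (23.3%, interval 9.93% to 42.3%), against 13.9% of the whole KAP1 list. H3K9me3 of Kap1 KO MEFs overlapped 0 of the 30 (interval 0% to 11.6%), against 0.554% of the whole KAP1 list. The 7 lay at Cyp2u1, Cyp26b1, Cyp11b2, Cyp2d12, Cyp21a1, Cyp1b1 and Cyp2c38.

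In WT MEFs the highest H3K9me3 score was that of Cyp11b2 (340), with 4 peaks between 6076 bp and 9270 bp upstream of its start. Cyp1b1 had 3 peaks, with scores of 195 and 78.2 over coding exons and 125 at 984 bp upstream of its start. Here H3K9me3 overlapped H3K27ac of the same WT cells, with a score of 789 at the start. Cyp2d12 (170) and Cyp46a1 (161), the cholesterol hydroxylase of brain, came next, the latter with a peak 21696 bp into the gene. They were followed by Cyp2d40 (139), Cyp21a1 (120), Cyp26b1 (104) and Cyp4f18 (101). The remaining genes had top scores between 54.1 and 98.3. They were Cyp2c65, Cyp2c67, Cyp27a1, Cyp2c37, Cyp2c38, Cyp2a5, Cyp2g1, Cyp2d10, Cyp2d11, Cyp3a59, Cyp39a1, Cyp2u1, Cyp2a4, Cyp1a2, Cyp8b1, Cyp17a1 and Cyp2c44. Within 1 kb of a transcript start, H3K9me3 was found in WT MEFs at 3 P450 genes, Cyp21a1, Cyp1b1 and Cyp4f18 (3.33%), against 2.76% of all genes.

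In Kap1 KO MEFs the highest H3K9me3 scores lay in introns of Cyp2c29, a drug-metabolising gene of the Cyp2c array. Its 5 peaks had scores of 60.1, 258, 429, 218 and 122, and the widest of them spanned 2736 bp. Between 92.7% and 100% of their 31-base words occurred more than once in the genome, and WT MEFs had no H3K9me3 peak in this window. Cyp11b1, which completes glucocorticoid synthesis next to Cyp11b2, had 1 peak (score 118) downstream of the gene. Cyp24a1, which degrades active vitamin D, had 2 peaks upstream with scores of 71.6 and 63.1. Cyp2c68 (66.4), Cyp20a1 (53.4) and Cyp3a44 (4 peaks, at most 53.1) completed the set. More than 50% of the 31-base words were repeated in 9 of the 14 distinct peaks (64.3%, interval 35.1% to 87.2%), against 35.5% of the peaks in the whole Kap1 KO list and 11 of 36 peaks (30.6%) of WT MEFs in P450 windows. The 5 peaks of Cyp2c29 were among these 9, and the interval treats peaks of 1 gene as independent. Within 1 kb of a transcript start, 0 P450 genes had H3K9me3 in Kap1 KO MEFs, against 0.733% of all genes.

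H3K27ac was rare at P450 genes in MEFs. In the windows it was found at 24 of 90 genes in WT (26.7%, interval 17.9% to 37.0%), against 68.7% of all genes, and at 33 in Kap1 KO (36.7%, interval 26.8% to 47.5%), against 68.9%. Within 1 kb of a transcript start, it was found at 14 genes in WT (15.6%, interval 8.77% to 24.7%), against 55.2%, and at 15 in Kap1 KO (16.7%, interval 9.64% to 26%), against 53.9%. All 4 intervals lay below the share of all genes. Some peaks in these windows lay at starts of neighbouring genes. In WT MEFs, those of Cyp27b1, which makes active vitamin D, were centred at most 325 bp from starts of Mettl1, March9 and Cdk4, and the strongest of Cyp1a1 was 250 bp from a start of Edc3. In Kap1 KO MEFs, the peak at the start of Cyp39a1 was centred 50 bp from a start of Slc25a27 and 199 bp from that of Cyp39a1.

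**Figure D4:**
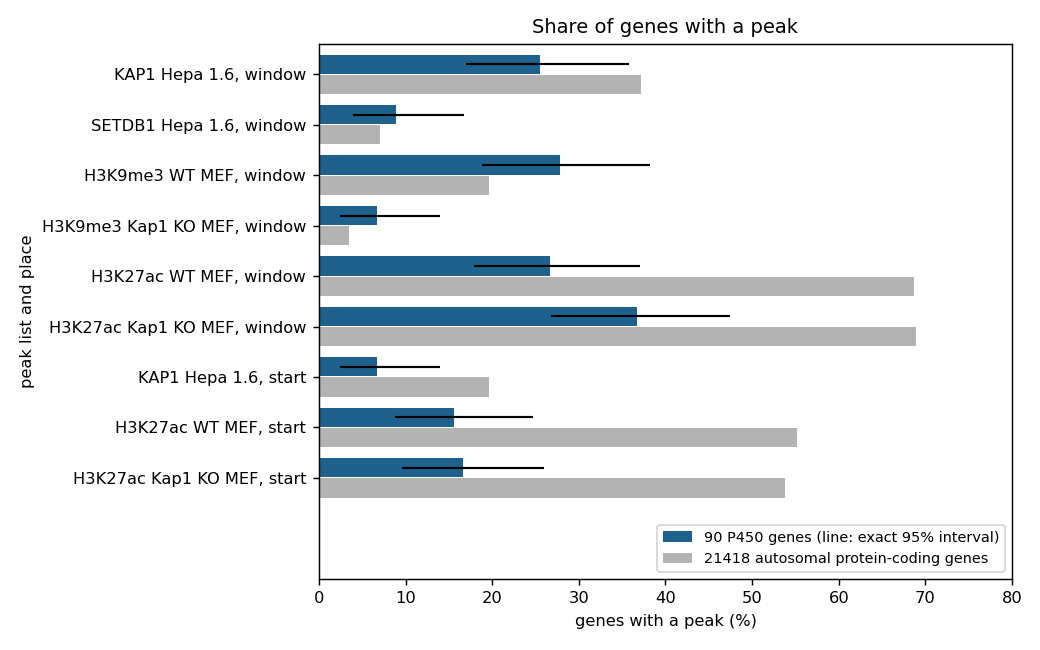
Share of genes with a peak (x axis, percent) for the 90 P450 genes (blue, with exact 95% intervals) and for all 21418 autosomal protein-coding genes (grey), in the window or within 1 kb of a transcript start. H3K27ac was found at 26.7% and 36.7% of P450 windows in WT and Kap1 KO MEFs, against 68.7% and 68.9% of all genes.

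In either genotype, H3K27ac lay at a start of 17 of the 90 P450 genes (18.9%), against 56.5% of all genes. By role, these came to 4 of 6 genes of bile acid and cholesterol metabolism, 6 of 23 of fatty acid and eicosanoid metabolism, 4 of 43 for foreign compounds, 1 of 3 for retinoic acid, 1 of 6 for steroid hormones, 0 of 3 for vitamin D and 1 of 6 others. In both genotypes the mark was present at 12 genes. At Cyp20a1 it reached a score of 3100 in both. At Cyp39a1, which hydroxylates oxysterols, scores were 3100 in WT and 1171 in Kap1 KO, at Cyp2j6 3100 and 1115, and at Cyp4f17 3100 and 1041. Cyp4f13 (2703 and 1519), Cyp4v3 (2348 and 204), Cyp4f16 (1520 and 872), Cyp46a1 (1200 and 818) and Cyp1b1 (789 and 597) followed, in the same order of genotypes. Cyp27a1, the sterol hydroxylase of the acidic bile acid pathway, had the lowest scores, 59.1 and 97.7. Many peaks share the score 3100. In the lists as a whole, 9975 peaks of WT and 7710 of Kap1 KO had it, and median scores were 686 and 576.

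In WT alone, H3K27ac lay at the starts of Cyp1a1 (score 160), the classical target of the aryl hydrocarbon receptor, and Cyp7b1 (95.3), which hydroxylates oxysterols. In Kap1 KO alone it lay at Cyp2c40 (1409), Cyp2c69 (733) and Cyp21a1 (488). Of the windows, 10 held H3K27ac in Kap1 KO and none in WT (11.1%, interval 5.46% to 19.5%), against 3.03% of all genes. Such a window has to lack H3K27ac in WT, which 26.7% of P450 windows held, against 68.7% of all genes. Both shares therefore rest on unlike bases, and the gap between them is not read as a trait of P450 genes. Only 1, that of Cyp2d22 (score 450), held it in WT and not in Kap1 KO (1.11%, interval 0.0281% to 6.04%), against 2.81%. Besides Cyp21a1, Cyp2c67, Cyp2c40 and Cyp2c69, the 10 were Cyp2b10 (830), a phenobarbital-inducible gene, Cyp11a1 (176), which starts steroid synthesis, Cyp19a1 (143), the aromatase gene, Cyp3a13 (125), Cyp2c70 (106) and Cyp3a44 (102). Upstream of Cyp2c69, a further peak of Kap1 KO MEFs had a score of 2586, the highest of the 10 windows. Counted by peaks, 18 H3K27ac peaks of Kap1 KO MEFs in P450 windows shared no base with a WT peak. They lay at 13 of the 90 genes (14.4%, interval 7.92% to 23.4%), against 16.4% of all genes. The corresponding WT peaks lay at 9 (10.0%, interval 4.68% to 18.1%), against 20.4%. A KAP1 peak of Hepa 1.6 cells overlapped 4 of the 18 Kap1 KO peaks, at Cyp21a1, Cyp2c67, Cyp2c40 and Cyp2s1 (22.2%, interval 6.41% to 47.6%). Of the 8322 such Kap1 KO peaks of the whole list, 6.36% did. The interval treats the 18 peaks as independent, although Cyp2c67 and Cyp2c40 hold copies of 1 sequence and 4 of the 18 lay at Cyp2c69. Of the 9 peaks found in WT alone, 0 overlapped KAP1, against 2.43% of 8269.

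The CpG content of the promoters was set beside the mark. Within 500 bp of the 5′ end, the observed over expected CpG ratio had a median of 0.355 (range 0.0969 to 0.854) at the 17 P450 genes with the mark in either genotype. At the 73 without, the median was 0.144 (range 0.0216 to 0.758). Over all genes the medians were 0.730 with the mark and 0.227 without. A ratio of at least 0.6 was found at 5 of the 17 (29.4%, interval 10.3% to 56.0%) and at 3 of the 73 (4.11%, interval 0.856% to 11.5%). Among all genes the share was 72.0% with the mark and 13.2% without. The P450 genes with the mark included low-CpG promoters, such as Cyp4f16 (0.0969), Cyp2c40 (0.184) and Cyp21a1 (0.195), beside Cyp46a1 (0.854), Cyp20a1 (0.745) and Cyp2u1 (0.704).

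Of the 90 genes, 64 lay in 8 arrays, defined as at least 3 genes with less than 500 kb between neighbours, and 26 lay outside. In the arrays KAP1 was found at 13 genes (20.3%, interval 11.3% to 32.2%) and outside at 10 (38.5%, interval 20.2% to 59.4%), against 37.2% of all genes. H3K27ac within 1 kb of a start was found in WT MEFs at 5 of 64 genes in arrays (7.81%, interval 2.59% to 17.3%) and at 9 of 26 outside (34.6%, interval 17.2% to 55.7%), against 55.2% of all genes. For WT H3K9me3 in the window, the shares were 20.3% (interval 11.3% to 32.2%) and 46.2% (interval 26.6% to 66.6%), against 19.7% of all genes. Counted over the whole length of the arrays, 37 KAP1 peaks lay in 5.95 Mb, which is 6.22 peaks per Mb (exact Poisson 95% interval 4.38 to 8.58), against 5.32 per Mb of the autosomes. The Cyp2d array on chromosome 15 (13.5 per Mb, interval 4.96 to 29.4) was set against 8.73 for its chromosome, and the Cyp2c array (8.33, interval 4 to 15.3) against 9.08. The array of Cyp1a1, Cyp1a2 and Cyp11a1 had 0 KAP1 peaks, which allows up to 9.97 per Mb.

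For the histone marks the arrays differed from each other. The Cyp2d array had 18 WT H3K9me3 peaks, or 40.6 per Mb (interval 24 to 64.1), against 9.60 on chromosome 15, and 4 in Kap1 KO MEFs. Of the 18 peaks, 3 lay in windows of its genes. The Cyp3a array on chromosome 5, which encodes the major drug-metabolising enzymes of the family, had 14 H3K9me3 peaks in WT (16.7 per Mb, interval 9.13 to 28.0) and 18 in Kap1 KO MEFs (21.5 per Mb, interval 12.7 to 33.9). Its chromosome had 4.08 and 2.24 per Mb. In this array, 1 of the 14 WT and 4 of the 18 Kap1 KO peaks lay in windows of its genes. There 3 WT peaks shared a base with a Kap1 KO peak, whereas none did in the other 7 arrays. The Cyp2c array had 14 and 7 H3K9me3 peaks. It had 0 H3K27ac peaks in WT MEFs, which allows up to 3.07 per Mb, and 10 in Kap1 KO MEFs (8.33 per Mb, interval 4 to 15.3), with chromosome 19 at 19.1 and 18.6. The Cyp4f array, whose enzymes hydroxylate leukotrienes and fatty acids, had 7 H3K27ac peaks in each genotype, and all 7 of WT shared a base with Kap1 KO. In the array of Cyp2a, Cyp2b, Cyp2f, Cyp2g, Cyp2s and Cyp2t genes, H3K27ac counted 7 peaks in WT and 13 in Kap1 KO. The windows of its genes held 5 of these peaks in WT and 5 in Kap1 KO. The Cyp2j array had 1 H3K27ac peak in each genotype, at Cyp2j6. These counts were taken from 1 library per genotype, and the number of H3K27ac peaks on the autosomes was close, 35402 and 35318.

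**Figure D5:**
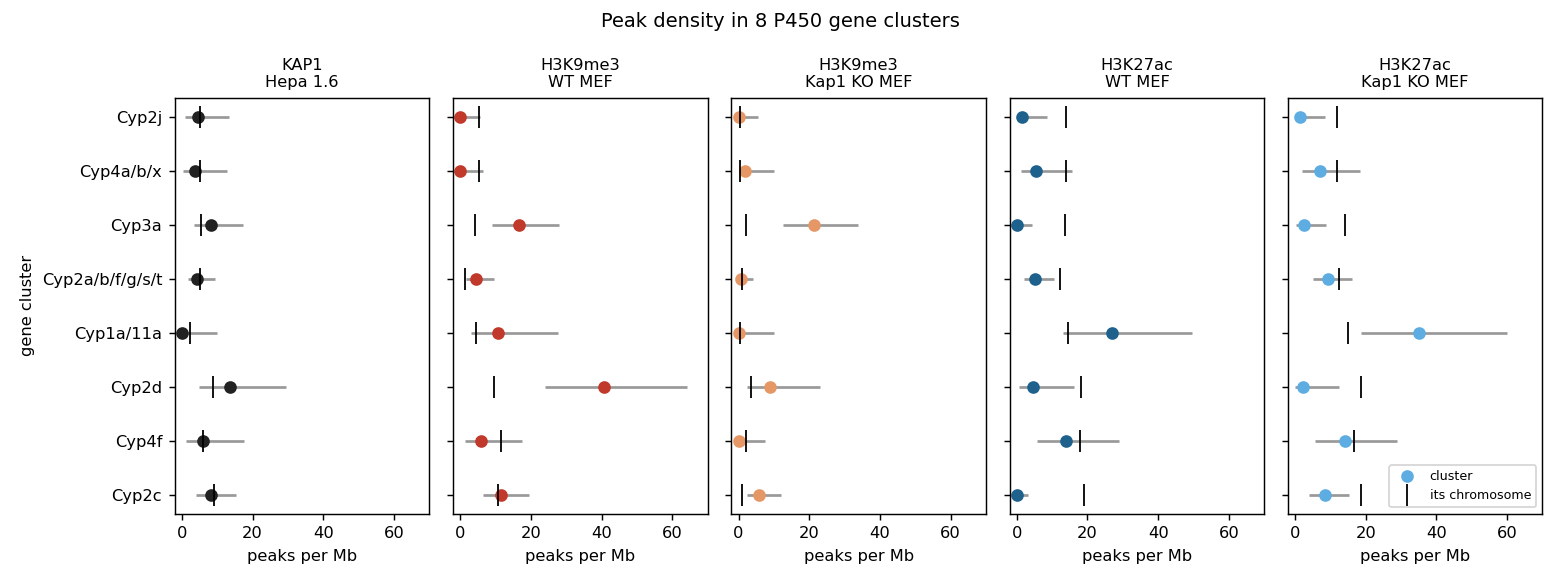
Peaks per Mb (x axis) in 8 arrays of P450 genes (rows) for KAP1, H3K9me3 and H3K27ac, with exact Poisson 95% intervals as lines and the density of the whole chromosome as a black tick. WT H3K9me3 stood at 40.6 per Mb in the Cyp2d array, Kap1 KO H3K9me3 at 21.5 in the Cyp3a array, and the Cyp2c array had 0 H3K27ac peaks in WT MEFs and 10 in Kap1 KO MEFs.

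No peak of any list lay in the windows of 31 P450 genes (34.4%, interval 24.7% to 45.2%), against 20.8% of all genes. They included Cyp7a1, the rate-limiting enzyme of bile acid synthesis, Cyp2e1, which metabolises ethanol, and Cyp2r1, which hydroxylates vitamin D. In arrays they came to 5 of 7 Cyp2j genes, 4 of 6 genes of the Cyp4a, Cyp4b and Cyp4x array, 4 of 7 Cyp4f genes and 7 of 13 genes of the Cyp2a to Cyp2t array. They were 3 of 6 Cyp3a genes, 2 of 8 Cyp2d genes, 3 of 14 Cyp2c genes and 0 of 3 in the array of Cyp1a1, Cyp1a2 and Cyp11a1. Outside arrays they were 3 of 26.

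A list of 27 genes of P450 pathways held redox partners, nuclear receptors, the genes Ahr, Arnt, Ahrr, Star and Srebf2, and Cyp51, a P450 gene outside the symbol rule. Of these, 26 were found in the annotation by symbol, and 18 had H3K27ac within 1 kb of a start in each genotype, against 55.2% of all genes in WT and 53.9% in Kap1 KO. Among them were Por, the reductase of microsomal P450 enzymes, with a score of 3100 in both, and Fdxr and Fdx1, the electron donors of the mitochondrial ones. Ahr, the receptor that induces Cyp1a1 and Cyp1b1, had 3224 in WT and 1802 in Kap1 KO. The liver receptors Nr1i2, Nr1i3 and Nr1h4 had no peak at a start in either. KAP1 was found in 17 of the 26 windows, against 37.2% of all genes, at a start of Por with a score of 401, and the SETDB1 list in 1, that of Cyb5r3. H3K9me3 was found in 9 windows in WT, against 19.7% of all genes, and in 0 in Kap1 KO MEFs, against 3.45%. Cyp51 was among the genes with H3K27ac at a start in both genotypes and among those with WT H3K9me3. The lipid receptor gene Ppara had H3K27ac at a start in WT alone (score 626), and the retinoic acid receptor gene Rarb in Kap1 KO alone (139).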

How the data were processed

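Peak lists of 6 ChIP-seq libraries were used, with 1 library per condition. The submitters' processing notes name Bowtie2 2.2.1 for mapping to mm9 and MACS 1.4 for peak calling, with input as control. The authors deposited a score for each peak, which MACS derives from the p-value. The stated cutoff score is 80, and the MEF lists reach down to 50. Genes came from GENCODE on mm9. A peak belonged to a window when at least 1 bp was shared. The P450 genes and gene lists were chosen with earlier results of these data known, so no test was made over them. Genes were named by their score: the 20 highest for KAP1 and for H3K9me3, and for H3K27ac the 20 highest at starts and the 10 highest in 1 genotype alone. Other genes were named after their values were seen. Repeated sequence was counted as 31-base words of mm9. Similar copies were searched with blastn 2.17.0 (at least 300 bp) and aligned with MAFFT 7.526, an analysis added after the data were examined. Intervals are exact (scipy 1.17.1). Window overlaps were identical to bedtools 2.31.1, and the overlap step was tested on simulated data. Other libraries of the study were not analysed here.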

Additional observations from a re-analysis of the deposited data

How the results depend on the processing

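Of 125 alternative values, 89 lay within 1.5 times the reported one, and 116 of 122 counts stayed on the same side of the share of all genes. With the top 50% of each list by score, KAP1 was found at 12 P450 genes, the SETDB1 list at 2 (2.22%, against 4.99% of all genes, a change of side) and WT H3K9me3 at 13 (all in WT alone). H3K27ac peaks without a counterpart were found at 2 genes in WT and 5 in Kap1 KO, 5 windows held H3K27ac in Kap1 KO alone, and the arrays held 3.36 KAP1 peaks per Mb. Over the gene body without flanks, counts were 10 for KAP1, 4 for SETDB1, 10 for WT and 3 for Kap1 KO H3K9me3 (also as found in 1 genotype alone), 13 for WT and 21 for Kap1 KO H3K27ac, 3 and 8 for its peaks without a counterpart, and 0 for H3K27ac in WT alone. With flanks of 20 kb, KAP1 was found at 36 genes, Kap1 KO H3K27ac peaks without a counterpart at 20 and H3K27ac in WT alone at 0.

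Within 10 kb of the 5′ end, counts were 15 for KAP1, 5 for SETDB1, 15 for WT and 3 for Kap1 KO H3K9me3 (also in 1 genotype alone), and 5 for WT H3K27ac peaks without a counterpart. Here 2 counts changed side: H3K27ac in WT alone was found at 3 genes (3.33%, against 3.09%) and Kap1 KO peaks without a counterpart at 11 (12.2%, against 7.89%). With MEF scores of at least 80, H3K9me3 was found at 13 genes in WT and 2 in Kap1 KO (also in 1 genotype alone), and Kap1 KO H3K27ac peaks without a counterpart at 14.4% of P450 and 14.4% of all genes. With equally many peaks from both genotypes, WT H3K9me3 was found at 6 genes (6.67%, against 8.95%, and 8.58% for WT alone), below the share of all genes, and Kap1 KO H3K9me3 at 6. The cause was not tested. No paired analysis was possible because each condition had 1 library.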
